A study of Mus musculus with 27 samples.

Results

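The genes described here are the 3 protamine genes Prm1, Prm2 and Prm3 and the 2 transition protein genes Tnp1 and Tnp2 of the mouse. They were taken by name from the tables of a study of Strep-tagged MIWI, the PIWI protein that carries pachytene piRNAs in mouse testes, and all 5 were found among 55358 genes. Long RNA was sequenced from testis cells sorted by DNA content into 1n cells, labelled spermatids, and 4n cells, labelled spermatocytes. Each population was collected from mice of the knock-in genotypes Strep1 and Strep2 and from WT mice, with 3 libraries per group and 18 in all. In both knock-in lines a Strep II tag of 8 amino acids was inserted at an internal position near the N-terminus of MIWI, at a different place in each line, and WT animals carry no tag. The tagged protein is made from the Miwi locus itself in both lines, and the labels give no age for the animals whose cells were sorted. A further 5 libraries hold small RNA eluted with tagged MIWI from whole testes of adult Strep1 mice, with no untagged control group. Their titles name only the tag and the genotype label gives Strep1. The codes of the lines differ between the genotype labels and the growth protocol, so Strep1 and Strep2 are used here as the genotype labels give them. The labels do not tie the 3 libraries of a group to different animals. The p-values below therefore measure library-to-library spread alone, and that spread may be technical.

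In developing sperm, histones are exchanged first for transition proteins and then for protamines, small basic proteins that bind DNA tightly and compact the sperm nucleus. The genes are transcribed in haploid round spermatids, largely under the activator CREM, and their mRNAs are stored in ribonucleoprotein particles until translation begins in elongating spermatids. Prm1 and Prm2 encode the arginine-rich DNA-binding protamines, of which Prm2 is made as a precursor and then shortened. Prm3 lies between Prm2 and Tnp2, and its mouse product is acidic and mainly cytoplasmic.

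Tnp2, Prm3, Prm2 and Prm1 lie side by side on the minus strand of chromosome 16 in build GRCm39, within Ensembl gene bounds of 10605747-10606526 (ENSMUSG00000043050), 10608369-10608778 (ENSMUSG00000050058), 10609236-10614045 (ENSMUSG00000038015) and 10614186-10623703 (ENSMUSG00000022501). Tnp1 stands alone on the minus strand of chromosome 1 at 73054221-73055208 (ENSMUSG00000026182). The canonical transcripts are 469 nt for Prm1, 627 nt for Prm2, 410 nt for Prm3, 436 nt for Tnp1 and 607 nt for Tnp2 in GENCODE vM39. Each has 2 exons except that of Prm3, which has 1.

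The 120 bases before the RefSeq start of each gene are printed because the 5 genes moved together in every comparison of the sorted populations. The sequences come from RefSeq (table build GRCm38.p6), all 5 matched by symbol, and each was placed by an exact match in GRCm39. They run 5′ to 3′ on the minus strand, with capitals on 4 letter patterns searched on both strands after the sequences had been seen: TGACGTCA, the full cAMP-response element that CREM binds, its relaxed form TGANNTCA, TATAAA and TATATA.
Prm1, chr16:10614688-10614807: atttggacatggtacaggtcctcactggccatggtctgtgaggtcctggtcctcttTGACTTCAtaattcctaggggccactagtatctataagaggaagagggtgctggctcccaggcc
Prm2, chr16:10609970-10610089: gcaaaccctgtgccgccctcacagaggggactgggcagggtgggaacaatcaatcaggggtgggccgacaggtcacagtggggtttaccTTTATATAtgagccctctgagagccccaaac
Prm3, chr16:10608779-10608898: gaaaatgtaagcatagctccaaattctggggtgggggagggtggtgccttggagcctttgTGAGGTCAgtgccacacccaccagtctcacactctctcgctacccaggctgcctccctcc
Tnp1, chr1:73055059-73055178: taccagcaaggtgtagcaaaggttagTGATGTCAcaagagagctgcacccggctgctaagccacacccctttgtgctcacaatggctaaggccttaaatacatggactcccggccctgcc
Tnp2, chr16:10606520-10606639: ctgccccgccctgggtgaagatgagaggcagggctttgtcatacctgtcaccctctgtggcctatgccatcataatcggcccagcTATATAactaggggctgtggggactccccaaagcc

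The letters TGANNTCA stood before 3 of the 5 genes, as TGACTTCA at positions -64 to -57 of Prm1, TGAGGTCA at -60 to -53 of Prm3 and TGATGTCA at -94 to -87 of Tnp1, where -1 is the base before the start. They occur in 7.1% of 32536 RefSeq promoter windows of the same length. TGACGTCA was found before none of the 5, against 1.24% of all windows. TATATA preceded Prm2 at -29 to -24 and Tnp2 at -35 to -30, against 2.5% of windows, and in Prm2 it overlaps TTTATA, which is TATAAA on the other strand, found in 6.33% of windows. Except for Prm3, the RefSeq starts differ from those of the canonical GENCODE vM39 transcripts. The canonical Prm1 transcript starts at 10614750, so part of the Prm1 window lies within it and TGACTTCA lies across its start. Canonical Prm2 and Tnp2 start at 10609975 and 10606524, just inside their windows. These matches describe letters in a window and locate no binding site.

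All 5 genes were far higher in 1n than in 4n cells of every genotype, and Prm1, the arginine-rich protamine that needs no trimming, had the highest level per transcript length. Values are sense reads-per-million (RPM) as deposited. Prm1 read 2006, 1210.4 and 1235 RPM in the 3 libraries of 1n Strep1 cells, against 49.1, 25.3 and 33.5 RPM in 4n Strep1 cells. In Strep2 it read 869.8, 1375 and 1282 RPM in 1n cells, against 25.5, 48.2 and 33.1 RPM in 4n cells. In WT it read 1257, 2152 and 1086 RPM in 1n cells, against 25.7, 27.4 and 34.2 RPM in 4n cells. The populations did not overlap, and the lowest 1n library of a genotype exceeded its highest 4n library by 24.7-fold in Strep1, 18-fold in Strep2 and 31.7-fold in WT. The log2 fold changes were 5.25 ± 0.28 in Strep1, 4.98 ± 0.28 in Strep2 and 5.45 ± 0.28 in WT (SE, limma on log2(RPM + 0.1), n = 3 libraries a group, adjusted p = 2.28e-12, 3.91e-12 and 1.82e-12). In bulk RNA, more cells that hold a transcript and more of it per cell cannot be told apart.

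Prm2, whose product needs proteolytic trimming, was again far higher in 1n cells. It read 801.4, 753.5 and 607.0 RPM in 1n Strep1 cells, against 36.9, 16.7 and 25.1 RPM in 4n Strep1 cells. The Strep2 values were 486.3, 784.1 and 557.2 RPM in 1n cells, against 15.1, 29.5 and 20.8 RPM in 4n cells. WT cells gave 700.4, 1112 and 551.2 RPM in 1n, against 15.7, 16.0 and 21.7 RPM in 4n. No 4n library came near a 1n library, and the log2 fold changes were 4.71 ± 0.28 in Strep1, 4.74 ± 0.28 in Strep2 and 5.24 ± 0.28 in WT (SE, limma, highest adjusted p = 9.41e-12).

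Prm3, the acidic member, had the lowest level per transcript length in every library. It read 25.3, 35.6 and 26.1 RPM in 1n Strep1 cells, against 2.19, 0.756 and 1.86 RPM in 4n Strep1 cells. In Strep2 the values were 28.2, 32.9 and 23.2 RPM in 1n cells, against 0.609, 1.71 and 1.26 RPM in 4n cells, and in WT they were 34.2, 39.8 and 21.95 RPM in 1n cells, against 1.01, 1.50 and 1.71 RPM in 4n cells. Its rise was the smallest of the 5 in point estimate in all 3 genotypes, at 4.07 ± 0.35, 4.46 ± 0.35 and 4.23 ± 0.35 log2 units in Strep1, Strep2 and WT (SE, limma, highest adjusted p = 1.48e-09). The difference in rise between members was not tested.

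Tnp1, the smaller and more basic transition protein, read 167.0, 229.7 and 137.7 RPM in 1n Strep1 cells, against 10.3, 3.88 and 6.01 RPM in 4n Strep1 cells. Its Strep2 values were 138.4, 214.0 and 122.3 RPM in 1n cells, against 3.46, 8.56 and 5.32 RPM in 4n cells, and its WT values were 200.3, 228.9 and 138.1 RPM in 1n cells, against 3.79, 4.54 and 6.30 RPM in 4n cells. The populations were again wholly apart, with log2 fold changes of 4.65 ± 0.34 in Strep1, 4.72 ± 0.34 in Strep2 and 5.07 ± 0.34 in WT (SE, limma, highest adjusted p = 1.34e-10).

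Tnp2 encodes the zinc-binding transition protein. It read 1075, 967.7 and 763.1 RPM in 1n Strep1 cells, against 35.0, 17.4 and 25.8 RPM in 4n Strep1 cells. Strep2 cells gave 624.2, 941.6 and 683.6 RPM in 1n, against 17.1, 36.3 and 24.8 RPM in 4n, and WT cells gave 931.1, 1239 and 642.5 RPM in 1n, against 17.4, 18.1 and 23.7 RPM in 4n. The log2 fold changes were 5.07 ± 0.27 in Strep1, 4.81 ± 0.27 in Strep2 and 5.35 ± 0.27 in WT (SE, limma, highest adjusted p = 4.28e-12).

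The rise is shared by much of the transcriptome. Of 22824 genes tested, 82.8% were called in either direction in Strep1 at a false discovery rate of 0.05, 83.3% in Strep2 and 82.6% in WT. Those called higher in 1n cells made up 43.9% in Strep1, 43.5% in Strep2 and 43.2% in WT, so 5 of 5 members called higher is read against that share. The members' log2 fold changes of 4.07 to 5.45 stand beside a median over all genes of 0.08 in Strep1, 0.04 in Strep2 and 0.05 in WT. How many of all genes separate the populations without overlap was not counted. The lack of overlap reported for members, here and on the opposite strand below, therefore does not single them out. Libraries of 1n Strep1 and of all 4n groups carry names of one numbered series, whereas 1n Strep2 and 1n WT libraries belong to another, so only the Strep1 contrast stays within a series. The Strep1 values above are therefore the within-series ones, and all 5 members are called there.

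**Figure D1:**
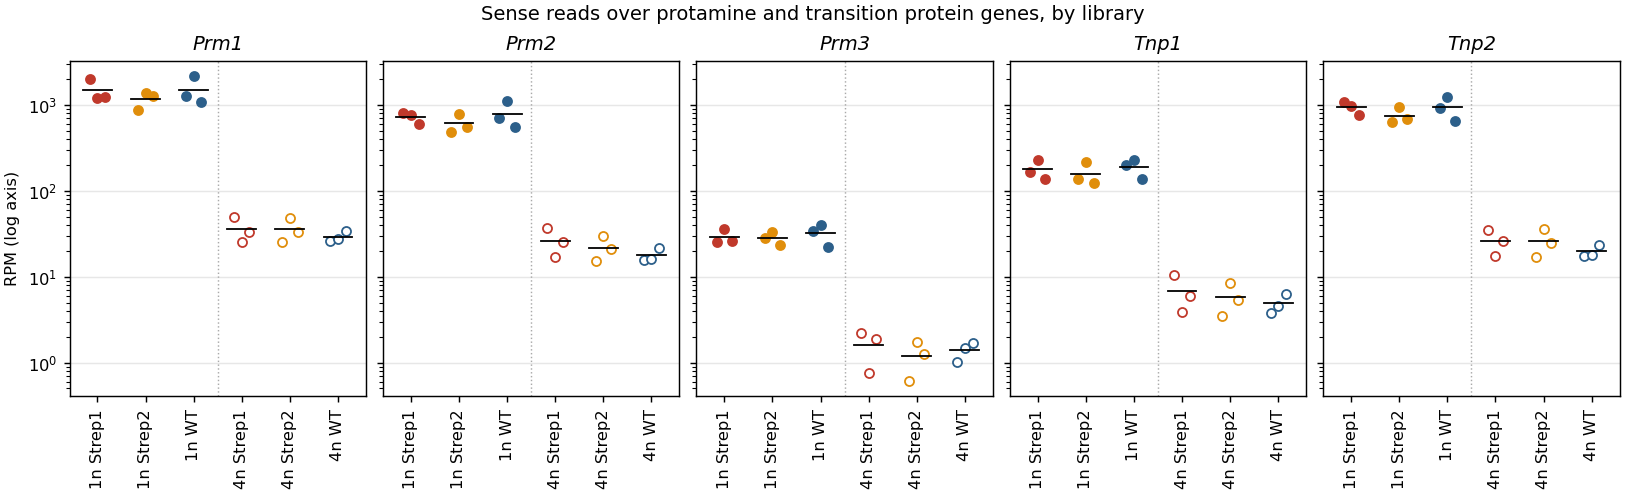
Sense RPM of each gene on a log axis, one point per library, with a black line at the mean of each group of 3; filled points are 1n cells, open points 4n cells, and colours give the genotype. Every 1n library lies above every 4n library for all 5 genes, and Prm1 spans 869.8 to 2152 RPM in 1n cells against 25.3 to 49.1 RPM in 4n cells.

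Together the 5 genes made up 0.438% ± 0.093 of all gene RPM in 1n Strep1, 0.355% ± 0.0714 in 1n Strep2 and 0.478% ± 0.157 in 1n WT cells, against 0.0149% ± 0.00584, 0.0134% ± 0.00338 and 0.0118% ± 0.00205 in the 4n cells of the same genotypes (SD, n = 3 each). Among all genes ranked by RPM, Prm1 stood between 5 and 56 in the 9 libraries of 1n cells and between 2943 and 4578 in those of 4n cells. Tnp2 ranked 25 to 106 in 1n cells and Prm2 33 to 192. Tnp1 ranked 699 to 1604 and Prm3 3748 to 5325.

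The transcripts were not absent from 4n cells. The mean 4n level was 1.94% (Prm1, WT) to 5.53% (Prm3, Strep1) of the mean 1n level. Markers of the neighbouring stages moved in the same libraries. The summed level of 10 round spermatid markers was 1497 to 1946 RPM in 1n libraries and 323 to 432 RPM in 4n libraries, and all 10 were called higher in 1n cells of each genotype. Acr and Zpbp held 68.4% to 81.0% of the 4n sums and rose by 0.81 and 0.62 log2 units in Strep1, whereas the other 8 rose by 3.22 to 4.21. Without that pair, left out after the values were seen, the sums were 1071 to 1421 RPM in 1n and 61.2 to 124 RPM in 4n libraries. For 12 markers of elongating spermatids the sums were 5385 to 7380 RPM in 1n and 1057 to 1476 RPM in 4n libraries, with all 12 called higher. Odf2 alone held 80.3% to 88.4% of the 4n sums and rose by 1.02 log2 units in Strep1, whereas the other 11 rose by 3.86 to 4.90. Without Odf2, likewise left out after the values were seen, the sums were 3323 to 5030 RPM in 1n and 134 to 262 RPM in 4n libraries. The median log2 fold changes in Strep1, Strep2 and WT were 4.06, 4.21 and 3.67 for the round and 4.38, 4.4 and 4.2 for the elongating spermatid markers, beside 4.07 to 5.45 for the members. Of 10 spermatocyte markers, 9 were called lower in 1n Strep1 and Strep2 cells and 8 in WT, with sums of 379 to 479 RPM in 1n and 1582 to 2283 RPM in 4n libraries. No marker of these 3 lists was at 0 in any library, and the part of admixed spermatids in the 4n values was not tested.

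Markers of spermatogonia and of somatic cells were low in both populations, but did not all move alike. Sertoli cell markers summed to 5.36 to 13.3 RPM in 1n and 6.16 to 9.74 RPM in 4n libraries, Leydig cell markers to 0.716 to 3.39 RPM in 1n and 1.14 to 1.96 RPM in 4n, and spermatogonial markers to 9.04 to 15.5 RPM in 1n and 6.29 to 10.8 RPM in 4n. Markers of peritubular and endothelial cells summed to 14.9 to 21.5 RPM in 1n against 3.51 to 5.07 RPM in 4n. Most of that 1n level was Vwf, at 12.7 RPM on average in 1n and 1.61 RPM in 4n Strep1 cells. Of the 6 genes on this list, 5 were called higher and 1 lower in 1n Strep1 cells, where 43.9% and 39% of all genes were. The counts were 4 and 1 in Strep2, and 5 and 1 in WT. The list's medians were 1.47, 1.28 and 1.6 log2 units in Strep1, Strep2 and WT. Pecam1 was the gene called lower in 1n cells, at -1.0, -1.1 and -1.19 log2 units in Strep1, Strep2 and WT. Markers of macrophages and blood summed to 5.03 to 6.03 RPM in 1n against 0.718 to 1.28 RPM in 4n. The defining genes Hsd3b1 and Lhcgr of Leydig cells and Hbb-bs and Hba-a1 of blood were at 0 in 4 to 6 of the 9 libraries of each population. Rhox5, Cyp17a1, Insl3, Csf1r and Lyz2 were at 0 in 1 to 3 libraries, each in 1 population only. The part of somatic cells in the members' levels was not tested.

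Between genes, levels are compared per kilobase of canonical transcript. In all 9 libraries of 1n cells the order was Prm1, Tnp2, Prm2, Tnp1, Prm3, with means of 2955, 1440, 1126, 402 and 72.4 RPM per kb over the 9 libraries. The lowest Prm1 library, at 1855 RPM per kb, lay inside the range of Tnp2, 1028 to 2041, and Tnp2 overlapped Prm2, 776 to 1774, so these neighbours separate within libraries rather than across them. Tnp1, at 281 to 527 RPM per kb, did not reach Prm2, and Prm3, at 53.5 to 97.0, did not reach Tnp1. In 4n cells 8 of the 9 libraries kept the same order, with Prm2 above Tnp2 in 4n Strep1 replicate 1.

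The proportions between members were also followed within each library, as ratios of RPM without regard to length. The ratio of Prm2 to Prm1 was 0.505 ± 0.112 in 1n Strep1, 0.521 ± 0.0752 in 1n Strep2 and 0.527 ± 0.0265 in 1n WT cells, against 0.720 ± 0.0511, 0.611 ± 0.0181 and 0.608 ± 0.0249 in the matching 4n cells (SD, n = 3 each). The ranges of this ratio in all libraries, 0.400 to 0.623 in 1n and 0.583 to 0.752 in 4n, overlap slightly. Transition proteins relative to the DNA-binding protamines, (Tnp1 + Tnp2)/(Prm1 + Prm2), gave 0.509 ± 0.064 in 1n and 0.532 ± 0.0248 in 4n libraries, a difference below the spread between libraries (SD, n = 9 each). Prm3 relative to Prm1 was 0.0226 ± 0.00624 in 1n and 0.0413 ± 0.0109 in 4n libraries.

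Within a group, libraries moved together over the members. Replicate 2 of 1n WT and replicate 2 of 1n Strep2 were the highest of their groups for all 5 genes. In 4n cells the highest for all 5 were replicate 1 of Strep1, replicate 2 of Strep2 and replicate 3 of WT. Only 1n Strep1 divided, with Prm1, Prm2 and Tnp2 highest in replicate 1 and Prm3 and Tnp1 in replicate 2. The coefficient of variation over 3 libraries lay between 14.1% (Prm2, 1n Strep1) and 48.8% (Tnp1, 4n Strep1). Elongating spermatid markers summed without Odf2 were highest in the same library as all 5 members in 1n Strep2 (replicate 2, 4465 RPM), 1n WT (replicate 2, 4569 RPM), 4n Strep2 (replicate 2, 237 RPM) and 4n WT (replicate 3, 262 RPM). In 1n Strep1 the highest was replicate 1, at 5030 RPM. In 4n Strep1 it was replicate 3, at 244 RPM, beside 232 RPM in replicate 1 and 134 RPM in replicate 2. The part of these markers' cells in the spread of the members was not tested.

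Across the 18 libraries the closest profiles among the members were those of Prm2 and Tnp2, with a root-mean-square difference of 0.132 on the centred log2 scale, and the farthest those of Prm1 and Prm3, at 0.611. Outside the members, 7717 genes with a mean of at least 10 RPM in 1n cells were ranked by the same measure. The nearest to Prm1 and to Tnp2 was Oxct2a, a testis form of succinyl-CoA transferase, at 0.200 and 0.185, and its close copy Oxct2b, whose reads may not be separable, was also among the 5 nearest of both. Prm2 lay nearest to Car2, a carbonic anhydrase, at 0.157, followed by Oxct2a, Cstl1, 1700027A15Rik and H2al2a. Tnp1 lay nearest to 1700027A15Rik at 0.175 and to H2al2a, a histone H2A variant of spermatids that works with transition proteins, at 0.202. The 5 nearest to Prm3 were 1700029H14Rik, Morn3, Cypt12, 1700019M22Rik and Proca1, at 0.199 to 0.209, and none of them was among the 5 nearest of another member.

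1700027A15Rik is a long noncoding RNA gene on the opposite strand to Tnp1. GENCODE vM39 lists the same Ensembl gene as Teshl, on the plus strand of chromosome 1 at 72975998-73100874, with 51 of the 436 nt of the canonical Tnp1 transcript under its exons. Its own strand read 65.5 ± 8.65 RPM in 1n Strep1, 53.4 ± 13.2 in 1n Strep2 and 63.7 ± 13.6 in 1n WT cells, against 2.52 ± 0.768, 2.25 ± 0.868 and 1.78 ± 0.392 RPM in the matching 4n cells (SD, n = 3 each). It rose by 4.55 ± 0.26, 4.47 ± 0.26 and 4.91 ± 0.26 log2 units in Strep1, Strep2 and WT (SE, limma, highest adjusted p = 4.67e-12), close to the 4.65, 4.72 and 5.07 of Tnp1.

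Genes that act on the members were followed as lists, each read against all genes. Of 20 factors of protamine transcription and mRNA storage, 9 were called higher and 4 lower in 1n Strep1 cells, where 43.9% of all genes were called higher and 39% lower, and the list's median of 0.31 log2 units stands beside 0.08 over all genes. The counts were 10 higher and 4 lower in Strep2 and 9 higher and 4 lower in WT. The steepest rises in Strep1 were those of Fhl5, the testis coactivator of CREM also known as ACT, at 99.3 ± 7.30 RPM in 1n and 5.06 ± 1.76 RPM in 4n cells, and of Kif17, the kinesin that moves Fhl5 between compartments, at 498 ± 11.0 and 26.5 ± 10.5 RPM (SD, n = 3 each). Their log2 fold changes were 4.2 and 4.19 (limma, adjusted p = 1.55e-12 and 9.74e-12). The steepest falls were those of Piwil1, which encodes MIWI itself, at 29.7 ± 2.65 RPM in 1n and 747 ± 50.6 RPM in 4n Strep1 cells, and of the RNA-binding protein gene Dazap1, at 93.2 ± 5.26 and 208 ± 27.5 RPM. Piwil1, which is also on the spermatocyte list, fell by 4.78 and Dazap1 by 1.28 log2 units (limma, adjusted p = 3.80e-16 and 7.80e-10), so RNA for MIWI was lower in the population in which the protamine RNAs were higher.

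Of 22 genes for histone eviction and protamine deposition, 8 were called higher and 10 lower in 1n Strep1 cells, 6 and 11 in Strep2, and 7 and 12 in WT. The share of all genes called lower was 39% in Strep1, 39.8% in Strep2 and 39.4% in WT. The medians were -0.18, -0.23 and -0.26 log2 units in Strep1, Strep2 and WT. Tssk6, a spermatid kinase needed for histone removal that is also on the elongating spermatid list, read 87.8 ± 13.1 RPM in 1n and 3.52 ± 0.773 RPM in 4n Strep1 cells, and Hmgb4, a spermatid HMG-box protein, read 73.7 ± 16.8 and 3.51 ± 1.52 RPM (SD, n = 3 each). They rose by 4.49 and 4.32 log2 units (limma, adjusted p = 1.59e-12 and 3.14e-11). Parg, which removes poly(ADP-ribose), fell by 3.05 and Rnf8, a histone ubiquitin ligase, by 2.11 log2 units (limma, adjusted p = 2.29e-13 and 4.72e-13).

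Germ cell histone variants held both the members' size of rise and steep falls. Of 22 listed, 20 were in the table and 17 passed the filter, of which 9 were called higher and 7 lower in 1n Strep1 cells, 9 and 7 in Strep2, and 10 and 7 in WT. These counts stand beside 43.9% of all genes called higher and 39% called lower in Strep1. H2al2a rose by 4.70 and H2bl1, a spermatid H2B variant, by 4.62 log2 units in Strep1 (limma, adjusted p = 3.89e-12 and 2.20e-13), sizes within the span of the members. The medians of the list were 0.76, 0.60 and 0.73 log2 units in Strep1, Strep2 and WT. The linker histone gene H1f6, expressed in spermatocytes, stood at 3.93 ± 0.524 RPM in 1n and 343 ± 76.2 RPM in 4n Strep1 cells, and the testis H2B gene H2bc1 at 2.07 ± 0.175 and 158 ± 49.9 RPM (SD, n = 3 each). They fell by 6.52 and 6.28 log2 units (limma, adjusted p = 5.64e-17 and 7.37e-15).

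The genes around the chromosome 16 cluster were listed to set the members beside their neighbours. Of 8 tested neighbours, 2 were called higher and 5 lower in 1n Strep1 cells, where 43.9% and 39% of all genes were, and 3 and 5 in Strep2, and 2 and 5 in WT. The list's median was -0.51 log2 units in Strep1, beside 0.08 over all genes. Ciita did not pass the filter. Snn, a small membrane protein gene, rose by 3.97 and Litaf, an endosomal protein gene, by 2.86 log2 units in Strep1. Socs1, the cytokine signalling inhibitor next to Tnp2, fell by 1.14, Rmi2 by 2.64, Txndc11 by 1.32, Nubp1 by 0.61 and Dexi by 0.42 log2 units. Clec16a changed by 0.16 log2 units in Strep1 and was not called there (limma, adjusted p = 0.0623), but was called higher in Strep2 at 0.28 (adjusted p = 0.00277).

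No member differed between a tagged line and WT beyond the spread of the libraries. In 1n Strep1 cells none of 5 members was called against WT, where 1.27% of 20988 genes were, and none in 1n Strep2 cells, where 0.1% were. In 4n Strep1 cells none was called, beside 0.867% of 18463 genes, and none in 4n Strep2 cells, beside 0.152%. Unadjusted p-values of the 20 tests lay between 0.112 and 0.9753, so 0 were under 0.05, and adjusted p-values between 0.628 and 0.997 (limma). The groups overlapped for every member in both populations, as the values above show.

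The intervals bound what these libraries could have hidden. In 1n cells Strep1 minus WT was -0.01 log2 units for Prm1 (95% interval -0.53 to 0.51), -0.09 for Prm2 (-0.55 to 0.36), -0.13 for Prm3 (-0.54 to 0.27), -0.11 for Tnp1 (-0.57 to 0.36) and 0.02 for Tnp2 (-0.41 to 0.44). This comparison crosses the series of library names. Each of the 5 changed sign when a single library was left out, and Prm1 also did so without the filter on low values (0.03) and without further scaling (0.01). Strep2 minus WT, which lies within a series, was below 0 for all 5 in 1n cells, at -0.33 for Prm1 (-0.85 to 0.19), -0.36 for Prm2 (-0.81 to 0.10), -0.18 for Prm3 (-0.58 to 0.23), -0.29 for Tnp1 (-0.75 to 0.17) and -0.32 for Tnp2 (-0.74 to 0.11). The 5 share their libraries, and replicate 2 of 1n WT is the highest WT library for each, so these signs are not separate observations.

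In 4n cells, all within a series, Strep1 minus WT was 0.19 for Prm1 (95% interval -0.34 to 0.72), 0.43 for Prm2 (-0.17 to 1.03), 0.01 for Prm3 (-0.87 to 0.90), 0.31 for Tnp1 (-0.49 to 1.10) and 0.28 for Tnp2 (-0.30 to 0.87). Strep2 minus WT was 0.15 for Prm1 (-0.38 to 0.68), 0.15 for Prm2 (-0.44 to 0.75), -0.39 for Prm3 (-1.27 to 0.49), 0.08 for Tnp1 (-0.72 to 0.87) and 0.25 for Tnp2 (-0.34 to 0.83). Whether a line effect differed between 1n and 4n cells was tested directly, and none of 5 members was called for Strep1, beside 0.193% of genes, or for Strep2, beside 0.0438% (limma, lowest unadjusted p = 0.175, lowest adjusted p = 0.670). Strep1 against Strep2 called none of the 5 either, beside 1.27% of genes in 1n and 0.921% in 4n cells (limma, lowest unadjusted p = 0.118 and adjusted p = 0.719).

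The authors' deposited tables, made from a separate quantification of the same libraries, also put no member below an adjusted p of 0.05. They call 2.26% of genes for 1n Strep1, 0.536% for 1n Strep2, 1.09% for 4n Strep1 and 2.69% for 4n Strep2 against WT. In the authors' deposited tables the members' adjusted p-values run between 0.606 (Tnp2, 4n Strep2) and 0.9998. The deposited log2 fold changes of the members run between -0.03 and 0.04, a much narrower scale than that of the limma values. The authors' normalized values do not share that narrow scale. Prm1 averaged 59850 in 1n Strep2 and 75450 in 1n WT cells, where the deposited log2 fold change was -0.01 and the limma value -0.33. The deposited fold changes are therefore not plain ratios of the normalized values, and do not show smaller differences in the separate quantification. In the limma line comparisons, no gene of the 4 lists around the members was called. Those genes were not looked up in the authors' deposited tables.

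**Figure D2:**
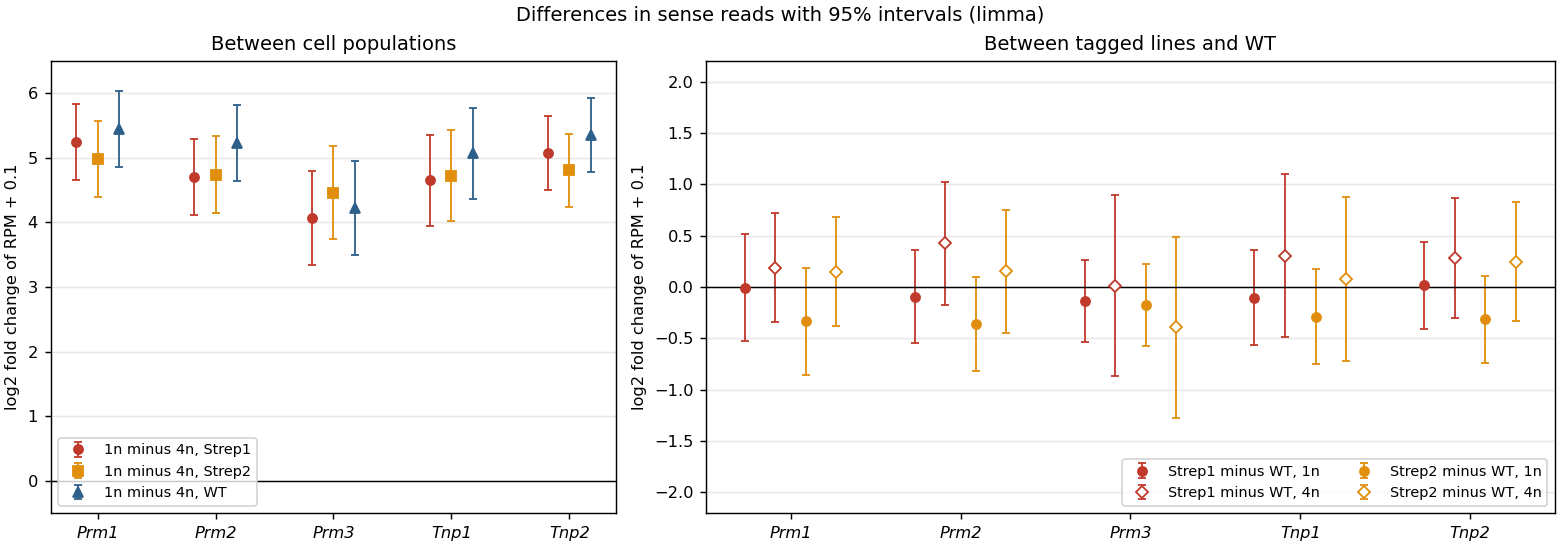
Log2 fold changes of RPM + 0.1 with 95% intervals for each gene: left, 1n minus 4n cells in each genotype; right, each tagged line minus WT within 1n (filled) or 4n cells (open). All left-hand values lie between 4.07 and 5.45, and all right-hand intervals include 0.

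Reads from the opposite strand were followed because several members are overlapped there by annotated genes. Gm46563, a long noncoding RNA gene on the plus strand of chromosome 16 at 10602518-10630590, has exons over 341 nt of the canonical Prm1 transcript, 127 nt of Prm2, 297 nt of Tnp2 and 0 nt of Prm3 in GENCODE vM39. The libraries were made with a stranded kit, per the labels' protocols. The exons counted in the files may differ from that release: antisense RPM of Gm46563, which would hold Prm1 mRNA if its exons lay over Prm1, was at most 0.0346 in any library. Sense RPM of Gm46563 was 2.60 to 4.09 in 1n and 0.812 to 1.49 in 4n libraries, far below antisense Prm2 in 1n cells. Antisense RPM of 1700027A15Rik, where Tnp1 mRNA can be counted, was 99.6 to 187 in 1n and 2.67 to 8.03 in 4n libraries.

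Prm2 had the highest antisense RPM of the 5 in 1n cells. Its antisense reads amounted to 17.5, 14.7 and 13.6 RPM in 1n Strep1 cells, against 1.77, 1.45 and 1.28 RPM in 4n Strep1 cells. In Strep2 they were 13.5, 15.6 and 15.2 RPM in 1n cells, against 1.62, 0.859 and 1.33 RPM in 4n cells, and in WT 17.1, 25.8 and 13.5 RPM in 1n cells, against 1.34, 1.95 and 2.13 RPM in 4n cells. The populations did not overlap, and antisense Prm2 rose by 3.14 ± 0.23, 3.40 ± 0.23 and 3.11 ± 0.23 log2 units in Strep1, Strep2 and WT (SE, limma, highest adjusted p = 4.24e-11).

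Antisense Prm1 reads came to 7.95, 5.98 and 6.33 RPM in 1n Strep1 cells, against 1.68, 1.39 and 1.13 RPM in 4n Strep1 cells. It rose by 2.07 ± 0.25 in Strep1, 2.01 ± 0.25 in Strep2 and 2.36 ± 0.25 log2 units in WT (SE, limma, highest adjusted p = 2.10e-07). Tnp1 antisense reads were few, 0.333 to 1.25 RPM over the 9 libraries of 1n cells and 0 to 0.0457 RPM over those of 4n cells, again without overlap. Antisense Tnp1 reached the 0.3 RPM of the filter in 1n libraries only, so it entered the test through the population where it is high. It was called higher in all 3 genotypes (limma, highest adjusted p = 4.09e-07), but this call carries no weight of its own. With a pseudocount of 0.01 or 1 RPM in place of 0.1 the size of its change lay between 0.52 and 5.14 log2 units. In 1n cells antisense reads were 0.506% of sense reads over Prm1 and 0.376% over Tnp1. The median over all genes with at least 10 RPM of sense reads was 0.446%. The part of mRNA reads assigned to the wrong strand in the antisense values of any member was not tested.

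Tnp2 and Prm3 behaved differently on this strand. Antisense Tnp2 read 5.52, 4.08 and 3.78 RPM in 1n Strep1 cells, against 5.15, 3.66 and 2.95 RPM in 4n Strep1 cells, and the changes of 0.08 ± 0.30, 0.05 ± 0.30 and 0.13 ± 0.30 log2 units in Strep1, Strep2 and WT were not called (SE, limma, lowest adjusted p = 0.690). The sense strand of Tnp2 rose by 5.07 log2 units in the same Strep1 libraries. Antisense Prm3 read 0.398, 0.422 and 0.424 RPM in 1n Strep1 cells, against 0.689, 1.02 and 0.386 RPM in 4n Strep1 cells, which overlap. It was called lower in Strep1 at -0.66 ± 0.29 log2 units (SE, limma, adjusted p = 0.0423) and not in Strep2 or WT, at -0.13 and -0.05. The Strep1 call is lost without any one of 5 of its 6 libraries, with no further scaling, with a pseudocount of 0.01 RPM, without the filter and with a replicate block. With libraries left out its value lay between -0.98 and -0.38 log2 units.

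Counting Tnp1, which passed the filter through 1n libraries alone, 3 of 5 members were called higher on the antisense strand in each genotype. Of 11470 genes tested there, 77.9% were called in either direction in Strep1, 77.3% in Strep2 and 78.2% in WT, and 38.8%, 38.8% and 39.2% were called higher. For Prm3 in Strep1 the share of genes called lower is 39.2%. As a share of sense reads, antisense reads over Prm2 were 1.95% to 2.78% in 1n libraries and 2.91% to 12.2% in 4n libraries. Over Tnp2 they were 0.376% to 0.864% in 1n and 9.18% to 28% in 4n libraries, and over Prm1 0.380% to 0.647% in 1n and 2.55% to 5.51% in 4n. Over Prm3 they were 0.934% to 1.90% in 1n and 16.5% to 135% in 4n libraries, where both strands were low. Tnp1 did not share this, at 0.242% to 0.546% in 1n and 0% to 0.905% in 4n libraries, with medians of 0.332% and 0.220%. All genes with at least 10 RPM of sense reads had a median antisense share of 0.446% in 1n cells (quartiles 0.146% and 1.97%, 7722 genes) and 0.385% in 4n cells. Prm2 lay above the upper quartile in 1n cells, while Prm1, Tnp1 and Tnp2, at 0.506%, 0.376% and 0.546%, were near the median and Prm3 lay between at 1.49%. In 4n cells, with quartiles of 0.121% and 1.80% over 7224 genes, Prm1 at 3.93%, Prm2 at 6.96% and Tnp2 at 16.1% all lay above the upper quartile, while sense Prm3 and Tnp1 averaged below 10 RPM there and were not placed.

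**Figure D3:**
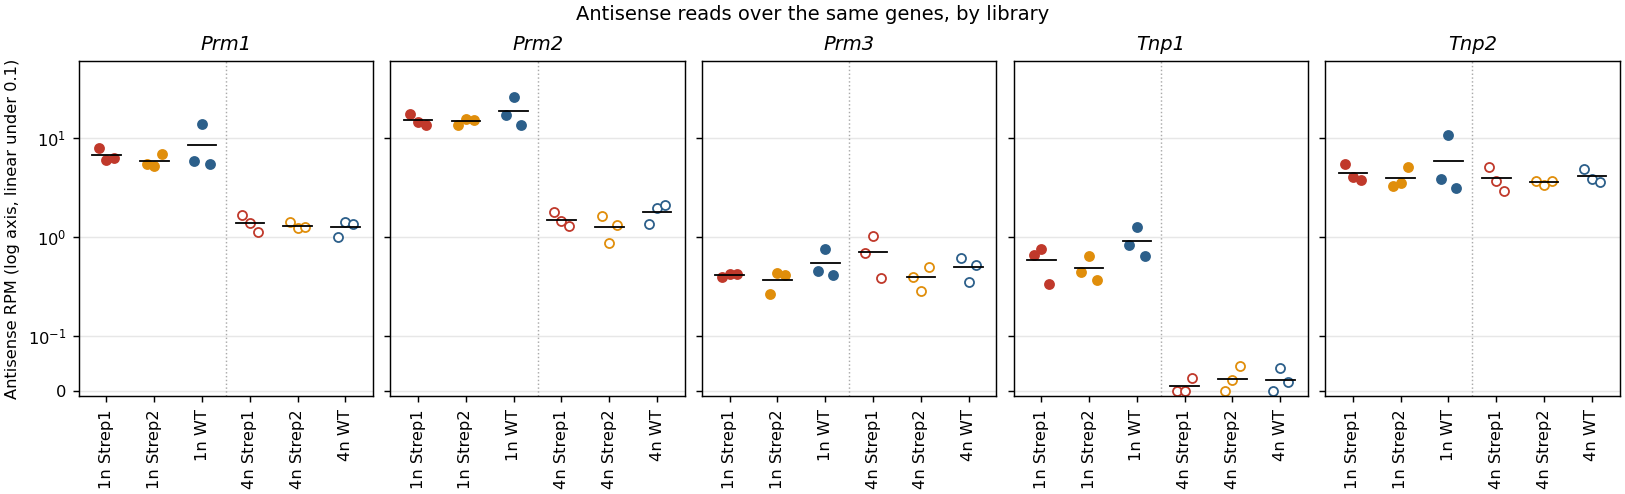
Antisense RPM over each gene, one point per library, on a log axis that is linear below 0.1, with a black line at the mean of each group of 3; filled points are 1n cells, open points 4n cells. Prm1, Prm2 and Tnp1 separate by population, Prm2 at 13.5 to 25.8 RPM in 1n against 0.859 to 2.13 RPM in 4n cells, while Tnp2 and Prm3 overlap.

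MIWI-bound small RNA gave another order of the 5 genes. In the 5 libraries from Strep1 testes, sense small RNA over Prm2 read 185.8, 114.4, 74.7, 85.0 and 177.5 RPM. Over Prm1 it read 28.4, 11.1, 9.55, 5.18 and 18.2 RPM, and over Tnp2 34.6, 14.2, 15.4, 9.67 and 33.1 RPM. Prm2 exceeded every other member in all 5 libraries, 6.53 to 16.4 times Prm1, although long RNA of Prm2 in 1n Strep1 cells was 0.400 to 0.623 times that of Prm1 in RPM. Per kilobase of transcript the mean small RNA level was 203 RPM for Prm2, 35.2 for Tnp2, 30.9 for Prm1, 25.3 for Tnp1 and 5.53 for Prm3.

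Tnp1 gave 25.6, 6.51, 7.13, 4.33 and 11.5 RPM of sense small RNA and Prm3 5.16, 1.20, 0.672, 0.793 and 3.51 RPM. By library name, replicate 1 belongs to another series than the other replicates. Replicates 1 and 5 were the highest for every member, and they also held the most sense small RNA over protein-coding genes in all, at 37515 and 33398 RPM, against 21056 to 24549 RPM in the others. The members' share of that protein-coding total was 0.745% and 0.730% in replicates 1 and 5 and 0.470% to 0.601% in the others. Sense reads over pachytene piRNA clusters made up 554290 to 652030 RPM of the same libraries, so small RNA over the members is a minor part of what they hold.

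Averaged over the 5 libraries, Prm2 stood at 127 ± 51.6 RPM, Tnp2 at 21.4 ± 11.6, Prm1 at 14.5 ± 9.09, Tnp1 at 11.0 ± 8.57 and Prm3 at 2.27 ± 1.98 RPM (SD, n = 5). By mean sense RPM Prm2 ranked 13 of 21834 protein-coding genes, and between 8 and 23 in single libraries. The others ranked 135 (Tnp2), 248 (Prm1), 384 (Tnp1) and 2471 (Prm3). Prm2 took 72.2% of the small RNA of the 5 genes, against 21.5% of their long RNA in 1n Strep1 cells, whereas Prm1 took 8.2% of the small RNA, against 44.3% of the long RNA.

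Set against the long RNA of 1n Strep1 cells, the ratio of mean small RNA RPM to mean long RNA RPM was 0.177 for Prm2, 0.0782 for Prm3, 0.0619 for Tnp1, 0.0229 for Tnp2 and 0.00977 for Prm1. Over 6906 protein-coding genes with at least 10 RPM of long RNA its median was 0.0225, with quartiles of 0.0128 and 0.0415. Tnp2 lay close to the median, Prm1 below the lower quartile, and the other 3 above the upper one. The small RNA came from whole testes and the long RNA from sorted cells, and the libraries were normalized separately, so the ratio describes an order among genes and no binding strength. Against the long RNA of 4n Strep1 cells, the population with more Piwil1 RNA, the same ratio was 4.86 for Prm2, 1.64 for Tnp1, 1.41 for Prm3, 0.821 for Tnp2 and 0.403 for Prm1. Prm2 was thus highest and Prm1 lowest with either denominator, and Tnp1 and Prm3 changed places.

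Nearly all of this small RNA matched the mRNA strand. Sense exceeded antisense in 5 of 5 libraries for each member, and the sense share was 94.0% for Prm1 and 99.0% to 100% for the others. Antisense small RNA over Prm1 was present in all 5 libraries, at 1.08, 0.386, 1.21, 0.634 and 1.35 RPM. For Prm2 it was between 0 and 0.416 RPM, for Prm3 between 0 and 0.0672 RPM, and Tnp1 was listed at 0 in every library. With no untagged precipitation among the libraries used, the level of small RNA that adheres without MIWI is not measured here.

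**Figure D4:**
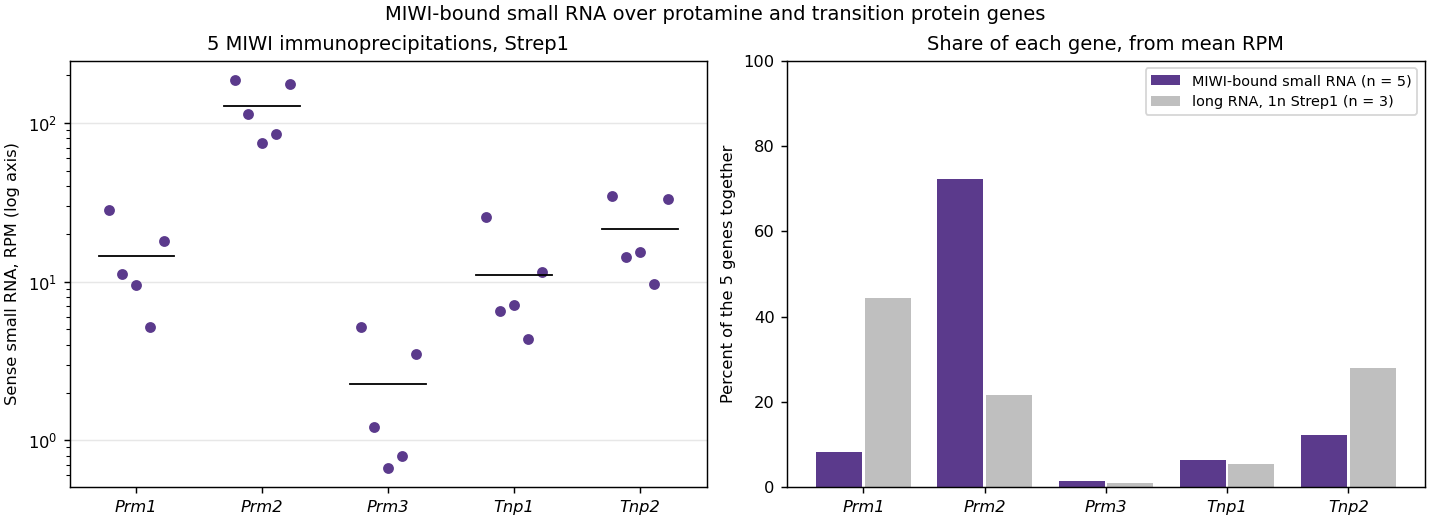
Left, sense small RNA RPM over each gene in the 5 MIWI precipitations of Strep1 testes, on a log axis with a black line at the mean; right, each gene's percentage of the 5 genes together, in MIWI-bound small RNA and in long RNA of 1n Strep1 cells. Prm2 holds 72.2% of the small RNA but 21.5% of the long RNA, and Prm1 8.2% against 44.3%.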

How the data were processed

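Long RNA libraries were prepared with a stranded total RNA kit after rRNA depletion, per the labels' protocols. The authors deposited sense and antisense tables of reads-per-million (RPM) for 18 long RNA and 5 small RNA libraries, and further tables of normalized signal per library with their own log2 fold changes and p-values. The submitters' processing notes name cutadapt, Bowtie, STAR, featureCounts, Salmon 1.3.0, DESeq, DESeq2 and GRCm39, and what each made and the denominator of RPM are not given in the sources used here. Sense gene values above 0 were divided by the commonest of them in each library. Only 41.3% to 45.2% of long RNA values, and 49.7% to 53.1% of small RNA values, gave whole multiples within 0.01. Reads were therefore not recovered and no count test was run. Taken as 1 read, that commonest value implies depths of 33.0 to 63.2 M reads (long) and 12.0 to 20.8 M reads (small). The true depth behind each value is unknown, and no counting intervals are given. The small RNA tables hold 4 columns of values of no sample, which were not used, nor was the slicing assay.

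From the deposited RPM, libraries were scaled to a common trimmed mean of their log ratios (30% of ratios and 5% of levels off each end). Features that reached 0.3 RPM in 3 or more libraries were tested with limma 3.58.1 (trend, R 4.3.3) on log2(RPM + 0.1), which understates changes of low genes. The 1n against 4n and interaction contrasts used all 18 libraries, line contrasts the 9 of one population, and antisense values the sense scaling. P-values were adjusted by Benjamini-Hochberg over all genes tested, threshold 0.05. Levels are deposited RPM without further scaling. The code was tested on simulated data. Named genes are the members, the 5 genes of most similar profile to each, the 2 largest rises and falls of each list in Strep1, and all tested neighbours of the chromosome 16 cluster. Odf2, Acr, Zpbp, Vwf, Pecam1, Adgre1, Csf1r and Ptprc were singled out after their values were seen. The members and lists were chosen with earlier results of these data known. Alternatives were other pseudocounts (1 and 0.01 RPM), no filter, no scaling, a replicate block, only the 2 groups compared, limma on the authors' normalized values, and leaving out each library.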

Additional observations from a re-analysis of the deposited data

Results flagged for a closer look

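One value stood apart from its group. Antisense small RNA over Tnp2 in the MIWI precipitations was 0.0539 RPM in replicate 5 and was listed at 0 in the other 4 libraries, so the gap between the highest and the next value was the whole range. With the other 4 libraries at 0, any value above 0 would be singled out in this way, so the flag carries no weight. The value equals the commonest sense gene value above 0 in its library, 0.0539 RPM, and so lies at the level of very few reads.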

How the results depend on the processing

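Sense differences between 1n and 4n cells were called in 180 of 180 values under the alternatives, at 3.45 to 5.63 log2 units. Antisense Prm1 (1.51 to 2.59), Prm2 (2.60 to 3.60) and Tnp1 (0.52 to 5.14) also stayed called, although Tnp1 passed the filter through 1n libraries alone. For antisense Prm3 in Strep1 (-0.66) the call was lost without the filter (-0.66) and with the replicate block (-0.66), without further scaling (-0.55) and with a pseudocount of 0.01 RPM (-0.76), and the values without single libraries were -0.98 to -0.38. The replicate block changed no other call, with 9 of 15 antisense and 15 of 15 sense results called under it. Same-numbered libraries did not pair, with correlations of their deviations from the group means of -0.359 to 0.346, over 0.1 in 5 of 27 pairs.

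The following results were called under no setting and changed sign under at least 1, and the cause was not tested. Strep1 minus WT in 1n cells turned to 6e-04, 0.0294 and 0.0101 for Prm1 on the authors' normalized values, without the filter and without scaling, and Prm3 in 4n cells turned to -0.0648 on the authors' values. Antisense Prm3 in WT turned to 0.10 without scaling.

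With libraries left out, the lowest and highest values were as follows. For Strep1 minus WT in 1n cells they were -0.25 and 0.28 (Prm1), -0.30 and 0.18 (Prm2), -0.36 and 0.0406 (Prm3), -0.30 and 0.0647 (Tnp1) and -0.21 and 0.24 (Tnp2). Without replicate 2 of 1n WT the values of Prm1, Prm2 and Prm3 were the highest of these. For Strep1 minus WT in 4n cells they were -0.0798 and 0.39 (Prm1), -0.28 and 0.43 (Prm3) and -0.0714 and 0.61 (Tnp1), each lowest without replicate 1 and highest without replicate 2 of 4n Strep1. For Strep2 minus WT in 4n cells they were -0.0429 and 0.32 (Prm1), -0.0387 and 0.34 (Prm2) and -0.20 and 0.35 (Tnp1). Strep1 minus Strep2 gave -0.23 and 0.24 (Prm1), -0.024 and 0.53 (Prm2), -0.15 and 0.54 (Tnp1) and -0.22 and 0.27 (Tnp2) in 4n cells, and -0.11 and 0.16 (Prm3) and -0.0099 and 0.42 (Tnp1) in 1n cells. The Strep1 interaction gave -0.44 and 0.0857 (Prm1) and -0.60 and 0.13 (Prm3), and that of Strep2 -0.14 and 0.53 (Prm3). Antisense 1n minus 4n gave -0.29 and 0.0499 (Strep2) and -0.27 and 0.0823 (WT) for Prm3, and -0.11 and 0.30 (Strep1), -0.14 and 0.18 (Strep2) and -0.39 and 0.46 (WT) for Tnp2.

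The number of genes called, which sets the background of the line comparisons, moved by more than 1.5 times. It was 156 to 331 beside 266 for Strep1 and 10 to 25 beside 21 for Strep2 against WT in 1n cells, 9 to 26 beside 28 for Strep2 against WT in 4n cells, and 174 to 303 beside 266 (1n) and 104 to 173 beside 170 (4n) for Strep1 against Strep2. The interactions called 25 to 86 beside 44 (Strep1) and 3 to 15 beside 10 (Strep2) genes. Antisense 1n against 4n in WT called 13711 of 39399 genes tested without the filter, beside 8967 of 11470 with it, so the count rose while the share fell. Antisense Tnp1 was listed at 0 in 4 of 9 libraries of 4n cells, so its fold has no firm size.

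With a change of at least 2-fold also asked for, the list counts in 1n Strep1 cells were as follows. Of 20 transcription and storage factors 6 were called higher and 2 lower, and of 22 eviction genes 4 and 6. Of 17 tested histone variants 8 were called higher and 6 lower, and of 8 tested chromosome 16 neighbours 2 and 3. Of all 22824 genes tested, 7911 were called higher at that size, and those called lower were not counted. The median antisense share of genes with at least 100 RPM was 0.229% in 1n and 0.179% in 4n cells, below Prm1, Prm2, Tnp1 and Tnp2 in 1n cells.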
